A study of Mus musculus with 29 samples.

Results

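The 5 genes Gfi1, Gfi1b, Id1, Id2 and Id3 were followed through hematopoietic stem and progenitor cells from mice without Mysm1, Puma or both. They were taken by symbol from the 23366 genes counted in each of 29 RNA sequencing libraries, and all 5 were found. GFI1 and GFI1B are related zinc-finger repressors that bind DNA through the same core sequence and recruit the histone demethylase LSD1 with CoREST and histone deacetylases. In mouse marrow Gfi1 is known for restraining stem cell division and for granulocyte and lymphoid development, and Gfi1b for red cell and platelet development. The Id proteins have a helix-loop-helix domain but no basic region, so they pair with E proteins and keep them off DNA. Mysm1 encodes a histone H2A deubiquitinase, and Gfi1 and Id2 have been published as genes it activates in blood cells. The question for these genes was therefore whether their RNA differed where Mysm1 was missing.

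C57BL/6 mice of 8 to 12 weeks of age gave bone marrow, which was sorted for lineage-negative, cKit-positive, Sca1-positive cells and then into CD150-positive cells, which hold the stem cells, and CD150-negative cells, which hold multipotent progenitors. CD150-positive cells gave 4 libraries of Mysm1-/-Puma+/- mice, 7 of Mysm1-/-Puma-/- mice, 2 of Puma-/- mice and 4 of wild-type mice. CD150-negative cells gave 3 libraries of each of these genotypes. The submitters used Mysm1-/-Puma+/- mice, which keep 1 intact Puma allele, in place of Mysm1-/- mice, so no group lacked Mysm1 with both Puma alleles intact. Both sexes were used in every group. The type of each mutant allele was not given in the sources used here. The submitters' library names begin with A where the genotype is Mysm1-/-Puma+/-, with B or P where it is Mysm1-/-Puma-/-, with C where it is Puma-/- and with D or W in wild type. Whether the libraries within a group stem from separate animals is not in the labels, and p-values therefore speak only of the spread among libraries, part or all of which may be technical.

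Depth lay between 12304713 and 35034318 counts per library in CD150-positive cells and between 28066870 and 54339749 in CD150-negative cells. Slamf1, which encodes CD150, lay at 11.0 to 30.4 CPM, which is reads scaled to a common library size, in CD150-positive and at 0.218 to 2.30 CPM in CD150-negative libraries, so the sort was seen in the RNA. Kit lay between 449 and 812 CPM in all libraries, whereas Ly6a, which encodes Sca1, lay only between 6.35 and 26.2 CPM. Mysm1 RNA averaged 72.6 to 101 CPM in the 4 Mysm1-/- groups, against 91.5 to 131 CPM in the other 4 groups. Bbc3, which encodes Puma, averaged 19.4 CPM in CD150-positive and 25.9 CPM in CD150-negative libraries labelled Mysm1-/-Puma-/-, beside 19.6 and 30.9 CPM in the same populations labelled Mysm1-/-Puma+/-. It averaged 2.49 CPM in CD150-positive and 5.56 CPM in CD150-negative libraries labelled Puma-/-, against 3.81 and 6.44 CPM in wild-type libraries. Bbc3 RNA was thus not absent from any group labelled Puma-/-, and with Mysm1 lost it did not mark the Puma genotype, so the Puma genotypes are taken from the labels alone. Counts over whole genes do not check either deletion unless the deleted part covers most of the gene. Background was gauged by 1464 receptor genes of smell (olfactory, vomeronasal and trace amine), which are not known to act in marrow and whose reads summed to 608 to 8902 CPM of a library. The 4 CD150-positive libraries named P or W form a second naming series, and results that rest on them are also given without them.

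In the mouse build NCBIM37, which is mm9, Gfi1 spans bases 108145674 to 108155056 of chromosome 5, minus strand. It is overlapped there by the long noncoding RNA gene A430072P03Rik on the plus strand. The library kit kept strand, but the strand setting of the counting was not given in the sources used here, so the Gfi1 counts may hold reads of that gene. Gfi1b spans 28464970 to 28477502 of chromosome 2 (minus strand), Id1 152561987 to 152563146 of chromosome 2 (plus strand), Id2 25778666 to 25780957 of chromosome 12 (minus strand) and Id3 135699412 to 135701670 of chromosome 4 (plus strand). None of these 4 genes overlapped another annotated gene.

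The 250 bases before the start site are shown for the members that are followed most closely below, from RefSeq on build GRCm38.p6, since Gfi1 and Gfi1b moved in opposite directions between the populations and Id2 is the other published Mysm1 target. Capitals mark AAATCA, the core bound by GFI1 and GFI1B, and GATAA, the core bound by GATA factors, both searched on either strand.
Gfi1b promoter at chr2:28621983-28622232, minus strand: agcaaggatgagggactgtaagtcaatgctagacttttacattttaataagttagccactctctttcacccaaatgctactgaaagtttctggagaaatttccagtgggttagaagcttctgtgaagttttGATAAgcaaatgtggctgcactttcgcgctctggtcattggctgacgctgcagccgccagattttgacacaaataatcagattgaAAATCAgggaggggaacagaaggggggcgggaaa
Gfi1 promoter of its upstream start at chr5:107725806-107726055, minus strand: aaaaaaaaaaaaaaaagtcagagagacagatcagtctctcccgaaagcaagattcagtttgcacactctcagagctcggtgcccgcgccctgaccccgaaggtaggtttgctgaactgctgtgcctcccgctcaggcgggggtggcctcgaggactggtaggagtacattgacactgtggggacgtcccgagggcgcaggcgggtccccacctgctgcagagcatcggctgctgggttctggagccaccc
Id2 promoter at chr12:25096093-25096342, minus strand: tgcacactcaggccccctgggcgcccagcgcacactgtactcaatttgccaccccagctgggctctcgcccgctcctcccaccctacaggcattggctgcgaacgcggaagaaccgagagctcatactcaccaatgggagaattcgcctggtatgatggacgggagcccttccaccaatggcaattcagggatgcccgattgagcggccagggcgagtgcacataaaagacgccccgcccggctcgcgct
Windows were matched for 4 of the 5 genes, Id1 being the one without. The Gfi1b window held AAATCA with its first base at -34 and GATAA with its first base at -119 from the start site. The windows of Gfi1 at both of its start sites and those of Id2 and Id3 held neither. AAATCA was found in 12.4% and GATAA in 22.6% of all 32851 windows of the same length. CCAAT, the box bound by NF-Y, was found 3 times in the Id2 window and once in the Gfi1b window, without overlap with the other motifs, and in 33.8% of all windows. The E-box CANNTG, bound by E proteins and other basic helix-loop-helix factors, was found in the windows of Gfi1, Gfi1b and Id2 but not in that of Id3, and in 66.2% of all windows.

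Levels below are CPM after scaling of library sizes by TMM, and CPM per kilobase of gene length is used where genes are set side by side. Over the 29 libraries the median level per length was 9.67 CPM per kb for Gfi1b, 3.69 for Id2, 2.56 for Gfi1, 0.683 for Id1 and 0.276 for Id3. These values use the gene lengths given with the counts, which differ from the exons annotated on NCBIM37. Over the union of annotated exons, a length tried after the data were seen, the medians were 18.7 CPM per kb for Gfi1b, 4.34 for Gfi1, 3.70 for Id2, 0.537 for Id1 and 0.147 for Id3, so the order of Gfi1 and Id2 depended on the length used. Gfi1b lay above the 95th percentile of the receptor genes per length in 29 of 29 libraries, Id2 in 28 and Gfi1 in 26. Id1 did so in 10 libraries and Id3 in 2. Id1 and Id3 were therefore measured close to background in most libraries, and at the median library 33.9% of receptor genes had as high a level per length as Id3. Id4, the fourth Id gene and not a member here, had 0 to 27 reads per library.

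**Figure D1:**
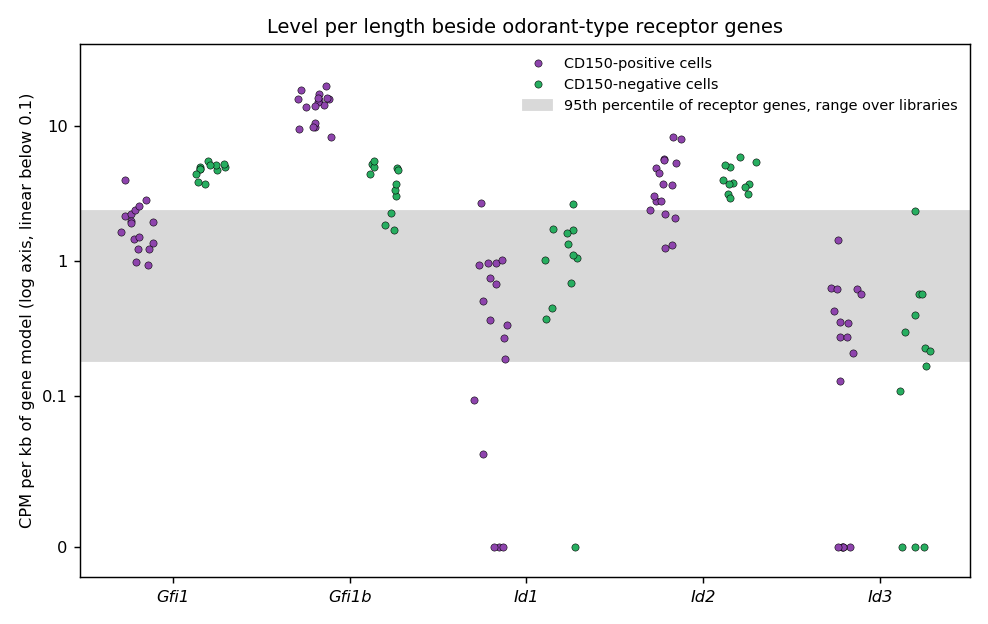
Level per kilobase of gene length of the 5 genes, 1 point per library, CD150-positive libraries left and CD150-negative right, on an axis that is logarithmic above 0.1 and linear below. The grey band spans, over the 29 libraries, the 95th percentile of 1464 receptor genes from 0.183 to 2.34 CPM per kb, and Id1 and Id3 lie in or below it in all but a few libraries.

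Gfi1 was lower and Gfi1b higher in CD150-positive than in CD150-negative cells of every genotype. Gfi1 ran from 5.16 to 21.9 CPM with a median of 10.6 CPM in the 17 CD150-positive libraries, against 20.3 to 30.1 CPM with a median of 26.9 CPM in the 12 CD150-negative libraries. Gfi1b ran from 28.96 to 69.1 CPM with a median of 53.0 CPM in CD150-positive libraries, against 5.96 to 19.4 CPM with a median of 14.4 CPM in CD150-negative libraries. The Gfi1b ranges did not overlap, and those of Gfi1 overlapped only through the wild-type library W1 at 21.9 CPM. Per length, Gfi1b was 3.35 to 19.9 times the level of Gfi1 in CD150-positive libraries, with a median of 7.19, against 0.443 to 1.07 times with a median of 0.784 in CD150-negative libraries. Per length, Gfi1b was thus the higher of the pair in every CD150-positive library, and Gfi1 was the higher in 7 of 12 CD150-negative libraries, with either gene length.

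**Figure D2:**
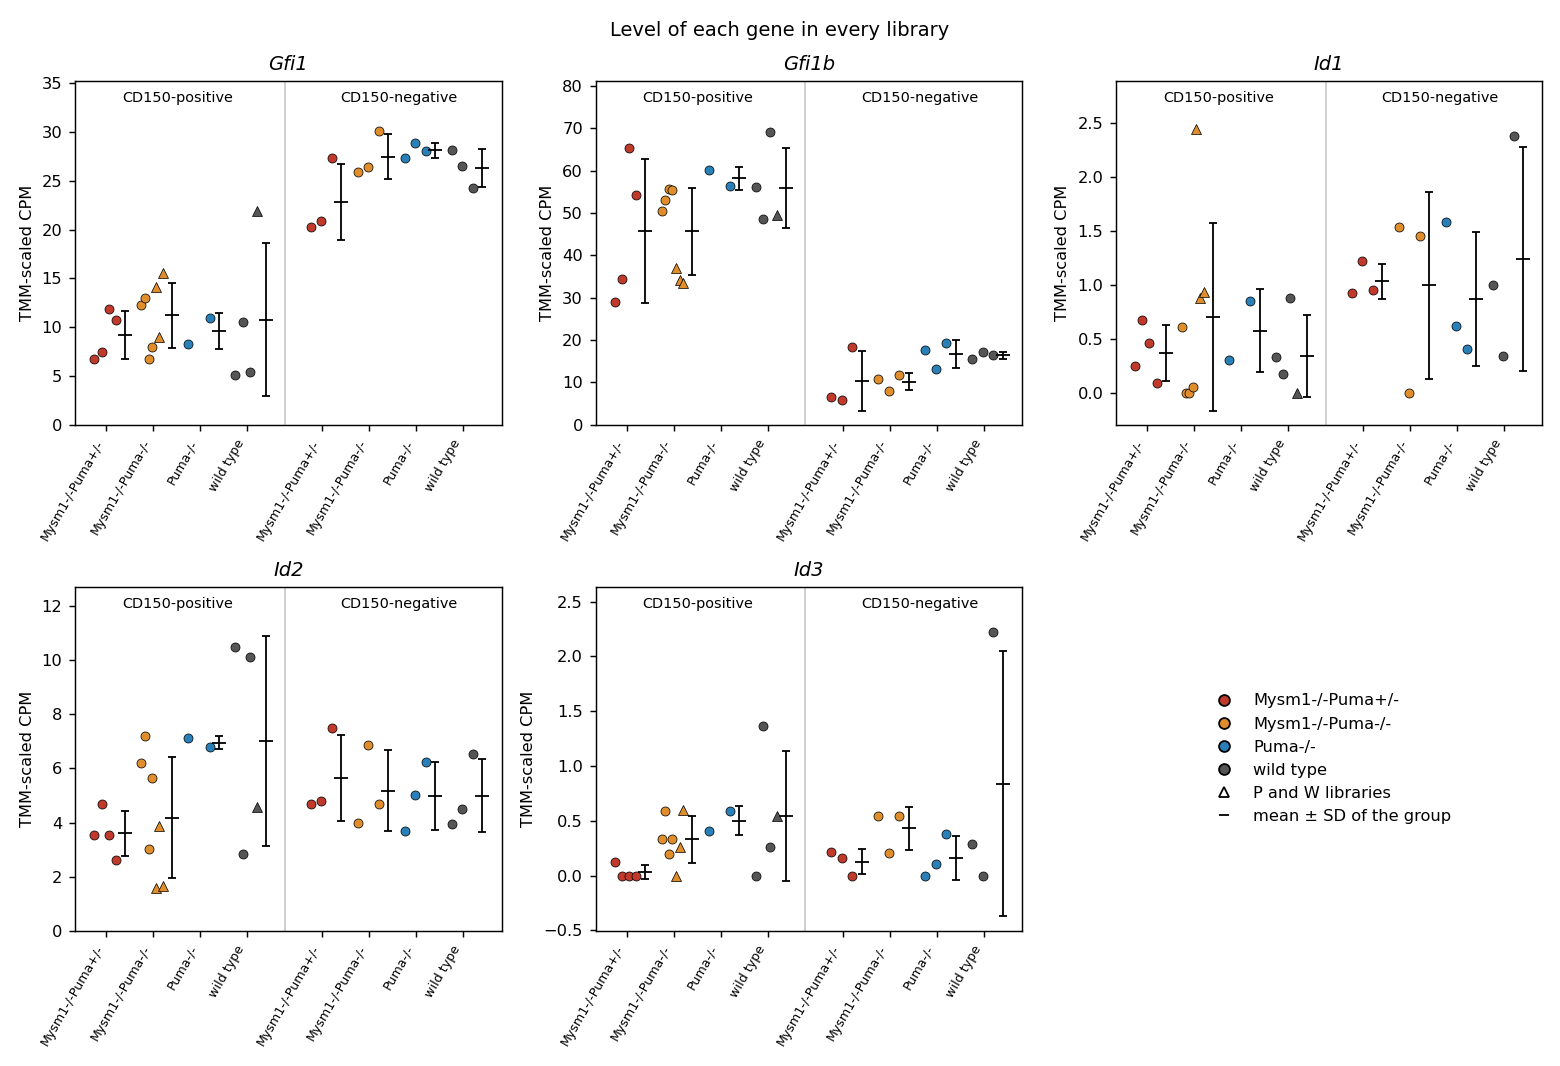
TMM-scaled CPM of each gene in every library, with CD150-positive groups left and CD150-negative groups right in each panel; circles are libraries, triangles are the P and W libraries and bars are the group mean ± SD. Gfi1 is lower and Gfi1b higher in CD150-positive cells. The ranges of each Id gene over all libraries overlap between the populations, though not between every 2 groups.

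In Mysm1-/-Puma+/- mice, Gfi1 had 6.78, 7.46, 11.8 and 10.7 CPM in CD150-positive libraries, against 20.3, 20.9 and 27.3 CPM in CD150-negative libraries. In Mysm1-/-Puma-/- mice it had 6.76 CPM in the lowest, 12.2 in the median and 15.5 in the highest of 7 CD150-positive libraries, against 25.9, 26.4 and 30.1 CPM in CD150-negative libraries. The groups did not overlap in either genotype. In Puma-/- mice it had 8.30 and 10.9 CPM in CD150-positive libraries, against 27.4, 28.9 and 28.1 CPM in CD150-negative libraries. In wild-type mice it had 5.16, 10.6, 5.40 and 21.9 CPM in CD150-positive libraries, against 28.1, 26.5 and 24.3 CPM in CD150-negative libraries. The ranges were separate here too, with the fourth wild-type library, W1, standing apart from the other 3 CD150-positive ones.

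Gfi1 had a log2 fold change, CD150-positive over CD150-negative, of -1.31 ± 0.33 (SE) in Mysm1-/-Puma+/- cells, with an adjusted p of 0.0129 by edgeR's quasi-likelihood test with Benjamini-Hochberg adjustment over all genes. It was -1.29 ± 0.29 in Mysm1-/-Puma-/- cells (adjusted p = 0.00238), -1.55 ± 0.42 in Puma-/- cells (adjusted p = 0.0274) and -1.29 ± 0.33 in wild-type cells (adjusted p = 0.0134) by the same edgeR test. Without the P and W libraries it was -1.43 in Mysm1-/-Puma-/- cells and -1.99 in wild-type cells, with edgeR adjusted p of 0.000124 and 1.25e-05. Leaving out W1 alone gave -1.91 in wild-type cells. The call was lost in Mysm1-/-Puma+/- cells without CD150-positive A1 (edgeR adjusted p = 0.0503) or CD150-negative A3 (0.0698). It was lost in wild-type cells without CD150-positive D1 (edgeR adjusted p = 0.0584) or D3-4 (0.0618) or CD150-negative D2 (0.0564), and in a fit of only the compared groups it was -1.32 with an edgeR adjusted p of 0.0658. In Puma-/- cells it was lost without any 1 of the 5 libraries, with edgeR adjusted p from 0.0559 to 0.237, where leaving out C1-4 or C2-5 leaves 1 CD150-positive library that is assumed to vary like the other groups.

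Gfi1b showed the larger step in the fits of all libraries, though the difference in size was not tested. In wild-type cells this rested on W1. Gfi1 was -1.91 on the log2 scale without W1, and Gfi1b was 1.65 to 1.82 over the alternatives tried. In Mysm1-/-Puma+/- mice it had 28.96, 34.5, 65.3 and 54.3 CPM in CD150-positive libraries, against 6.55, 5.96 and 18.5 CPM in CD150-negative libraries. In Mysm1-/-Puma-/- mice it had 33.5 CPM in the lowest, 50.4 in the median and 55.6 in the highest CD150-positive library, against 10.7, 8.03 and 11.8 CPM in CD150-negative libraries. The lowest CD150-positive library lay above the highest CD150-negative one in both genotypes. In Puma-/- mice it had 60.1 and 56.3 CPM in CD150-positive libraries, against 17.6, 13.2 and 19.4 CPM in CD150-negative libraries. In wild-type mice it had 56.2, 48.6, 69.1 and 49.5 CPM in CD150-positive libraries, against 15.5, 17.2 and 16.5 CPM in CD150-negative libraries. Again no CD150-positive library reached down to a CD150-negative one.

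For Gfi1b the same log2 fold change was 2.15 ± 0.32 (SE) in Mysm1-/-Puma+/- cells (edgeR adjusted p = 3.4e-05), 2.16 ± 0.30 in Mysm1-/-Puma-/- cells (edgeR adjusted p = 6.03e-06), 1.80 ± 0.35 in Puma-/- cells (edgeR adjusted p = 0.00138) and 1.77 ± 0.31 in wild-type cells (edgeR adjusted p = 0.000259). These calls were not lost under any alternative tried, including each left-out library. The value in Mysm1-/-Puma+/- cells was 2.87 without CD150-negative A3, against 2.15 with it, a shift of more than 1.5 times on the linear scale. In each genotype 2 of the 5 genes were called, 1 in each direction. The share of all 21830 tested genes called was 5.9% in Mysm1-/-Puma+/-, 12.3% in Mysm1-/-Puma-/-, 4.94% in Puma-/- and 7.15% in wild-type cells.

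**Figure D3:**
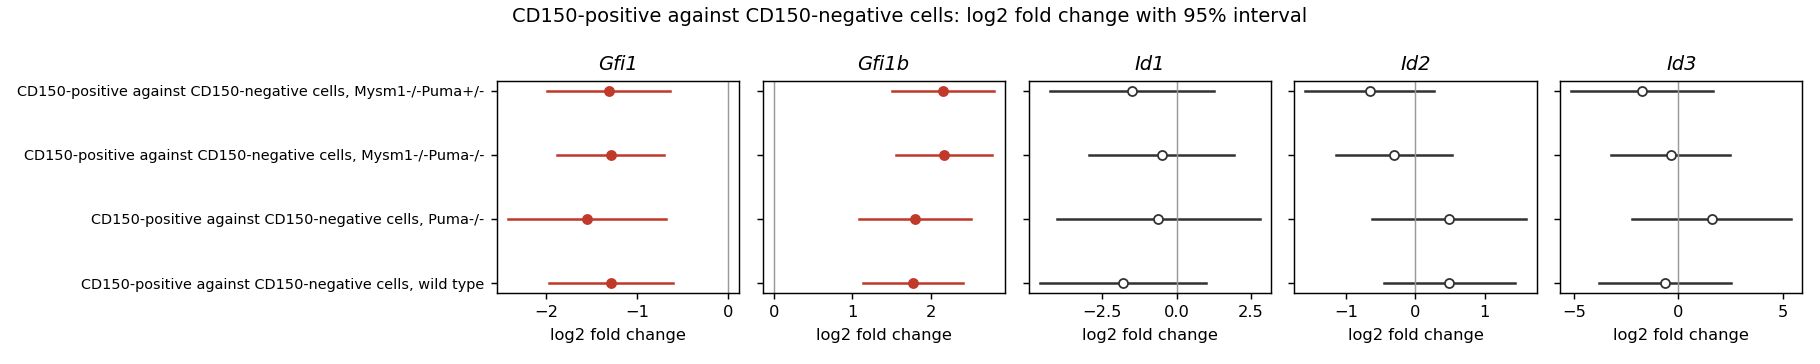
Log2 fold change, CD150-positive over CD150-negative cells, of each gene in the 4 genotypes with its 95% interval; filled red points passed the edgeR test at an adjusted p under 0.05 and open points did not. Gfi1 lies below 0 and Gfi1b above 0 in all 4 genotypes, with intervals that exclude 0, and every interval of the Id genes includes 0.

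None of the Id genes passed the test between the populations. Id2 ran from 1.58 to 10.5 CPM with a median of 4.59 CPM in CD150-positive libraries, against 3.70 to 7.498 CPM with a median of 4.74 CPM in CD150-negative libraries. Its log2 fold change was -0.66 ± 0.45 (SE) in Mysm1-/-Puma+/- cells, -0.31 ± 0.41 in Mysm1-/-Puma-/- cells, 0.48 ± 0.54 in Puma-/- cells and 0.49 ± 0.46 in wild-type cells, with edgeR adjusted p from 0.562 to 0.774. The ranges over all genotypes overlapped. Those of Puma-/- libraries did not, at 6.78 and 7.13 CPM in CD150-positive and 3.70 to 6.23 CPM in CD150-negative cells. The wild-type interval still allowed a difference from -0.45 to 1.43 on the log2 scale. Id1 ran from 0 to 2.45 CPM with a median of 0.333 CPM in CD150-positive libraries, against 0 to 2.38 CPM with a median of 0.981 CPM in CD150-negative libraries. Id3 ran from 0 to 1.37 CPM with a median of 0.263 CPM in CD150-positive libraries, against 0 to 2.22 CPM with a median of 0.212 CPM in CD150-negative libraries.

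Markers of some other cell types moved with the population. The sum of 7 megakaryocyte markers was 248 to 1295 CPM in CD150-positive libraries, against 38.1 to 97.5 CPM in CD150-negative libraries. The sum of 9 erythroid markers, which include Gata1, was 118 to 369 CPM in CD150-positive libraries, against 52.5 to 150 CPM in CD150-negative libraries. The adult globin genes Hbb-b1 and Hba-a1 were at or near 0, with at most 0.467 and 0.611 CPM in any library. Alas2, another of the 9, went the other way, with a median of 0.783 CPM in CD150-positive and 3.28 CPM in CD150-negative libraries. The sum of 12 granulocyte and monocyte markers was 346 to 1027 CPM in CD150-positive libraries, against 691 to 2201 CPM in CD150-negative libraries. The sum of 5 dendritic cell markers was 68.4 to 160 CPM in CD150-positive libraries, against 103 to 295 CPM in CD150-negative libraries. B cell markers summed to 21.0 to 2435 CPM in CD150-positive and 72.3 to 1381 CPM in CD150-negative libraries, which overlapped widely. The same held for T cell markers, at 19.9 to 113 CPM in CD150-positive and 32.1 to 88.4 CPM in CD150-negative libraries. NK cell markers (31.5 to 93.1 against 27.2 to 62.0 CPM) and mast cell markers (13.8 to 45.7 against 10.5 to 37.2 CPM) overlapped as well. The dendritic markers did not move together. Irf8 had a median of 13.2 CPM in CD150-positive and 94.5 CPM in CD150-negative libraries, whereas the median of Siglech was 32.2 CPM in CD150-positive and 13.2 CPM in CD150-negative libraries, and that of Xcr1 was 34.9 CPM in CD150-positive and 17.1 CPM in CD150-negative libraries. The part of all these markers in the Gfi1 and Gfi1b differences was not tested, and in bulk RNA a change in the share of cells cannot be told apart from a change in RNA per cell.

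The genes whose log2 CPM followed Gfi1 and Gfi1b most closely were read off by Pearson's r over the 29 libraries, among 10627 genes. The libraries share the population split, so r is a description only. The 3 most like Gfi1 were Dntt, the DNA polymerase that adds bases at antigen receptor joints, with r = 0.933, Ccdc135 with r = 0.928 and Irf8, a transcription factor of myeloid and dendritic cells, with r = 0.926. The 3 most like Gfi1b were Gata1, the master factor of red cells and platelets, with r = 0.971, Sept8 with r = 0.966 and Aqp1, the red cell water channel, with r = 0.962. After the group means were taken out, r was still 0.716 to 0.756 for the 3 genes beside Gfi1 and 0.816 to 0.910 for the 3 beside Gfi1b. Gfi1 and Gfi1b had r = -0.76 with each other over all libraries but 0.019 after the group means were taken out. Among the genes most like Id2 were Ikzf3, a lymphocyte factor, with r = 0.640 and Morn2 with r = 0.594. The highest r was 0.679 for Id1, with Rufy3, and 0.648 for Id3, with the vomeronasal receptor gene Vmn2r47, one of the background genes.

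Of 12 transcription factors known to act on Gfi1 or Gfi1b, Gata1, Gata2 and Tal1 were higher in CD150-positive cells of all 4 genotypes and Cebpa was lower in all 4. In wild-type cells 3 of the 12 were higher and 4 lower, with 7.15% of all genes called. The list median was -0.02 against 0.05 for all genes tested. In wild-type cells Gata1 had a log2 fold change of 2.68, Gata2 of 2.04 and Tal1 of 1.07, factors that act with GFI1B in red cell and platelet precursors. It was -2.49 for Cebpa, the factor of granulocyte commitment. Of 12 genes known to be repressed by GFI1, which include the members Gfi1b, Id1 and Id2, 3 were higher and 2 lower in wild-type CD150-positive cells, at a list median of 0.36 against 0.05 for all genes and with 7.15% of all genes called. The list median was -0.26 in Mysm1-/-Puma+/-, 0.01 in Mysm1-/-Puma-/- and 0.33 in Puma-/- cells, so its sign was not shared by the genotypes, and the same medians over all genes were -0.00036 in Mysm1-/-Puma+/-, -0.07 in Mysm1-/-Puma-/- and 0.15 in Puma-/- cells. Egr1, an early response factor, was higher there with a log2 fold change of 2.34, whereas Il7r, the interleukin 7 receptor gene, was lower with -1.54. None of the 13 GFI1 and GFI1B cofactors was called in wild-type or Puma-/- cells by edgeR, where 7.15% and 4.94% of all genes were called. In Mysm1-/-Puma+/- cells, where 5.9% of all genes were called, the corepressor gene Rcor3 was higher with a log2 fold change of 0.68. Ajuba, which encodes a LIM domain protein, was lower there with -1.42. Ajuba was also lower in Mysm1-/-Puma-/- cells, with -1.55, where 12.3% of all genes were called.

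The partners and known targets of the Id proteins gave a further view of the population split. Of 7 other Id family and helix-loop-helix genes, Tal1 was higher and Tcf4, which encodes the E protein E2-2, and Lyl1 were lower in wild-type CD150-positive cells, with log2 fold changes of 1.07, -0.88 and -0.52. Of all genes, 7.15% were called there. Of 13 lymphoid genes known to be driven by E proteins, 5 were lower and none higher in wild-type CD150-positive cells, at a list median of -0.97 against 0.05 for all genes and with 7.15% of all genes called. In Mysm1-/-Puma+/- cells 4 of the 13 were lower, at a median of -0.74 and with 5.9% of all genes called. In Mysm1-/-Puma-/- cells 5 were lower, at a median of -0.89 and with 12.3% of all genes called. In Puma-/- cells 2 were lower, Dntt and Notch1, with 4.94% of all genes called, and the list median was 0.02 against 0.15 for all genes. In wild-type cells the log2 fold change was -4.76 for Dntt, -2.73 for the receptor gene Notch1, and -2.67 and -2.19 for Rag2 and Rag1, the recombinase genes of antigen receptors. Of 22 BMP and TGF-beta ligands, receptors and Smads, through which Id genes are induced, 2 were lower in wild-type cells, the receptor gene Tgfbr1 with -0.60 and Smad1 with -0.47. That share is near the 7.15% called over all genes. Over the 4 genotypes, 2 of the 22 were called higher and 4 lower in at least 1 genotype. Of all genes, 5.9% were called in Mysm1-/-Puma+/-, 12.3% in Mysm1-/-Puma-/- and 4.94% in Puma-/- cells. None of the 22 was called between genotypes within a population. The ligand gene Tgfb1 and the coreceptor gene Eng were higher in Mysm1-/-Puma+/- cells, with 0.72 and 0.65, and in Mysm1-/-Puma-/- cells, with 0.70 and 0.53. Smad7, an inhibitory Smad, was lower in Mysm1-/-Puma-/- cells with -1.38, and Smad5 was lower in Puma-/- cells with -0.56.

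Loss of Mysm1 gave no call for any of the 5 genes. Mysm1-/-Puma+/- libraries were compared with wild type and Mysm1-/-Puma-/- libraries with Puma-/-, 2 comparisons that share no library, and Mysm1-/-Puma-/- also with wild type. Of 50 tests of the 5 genes in 10 genotype comparisons, edgeR called 0, and 3 had an unadjusted p under 0.05. DESeq2 and limma-trend on the deposited CPM called 0 as well, and limma voom with sample quality weights called 2, both for Gfi1b in CD150-negative cells. The share of all tested genes called in CD150-negative cells was 0.869% for Mysm1-/-Puma+/- against wild type, 1.35% for Mysm1-/-Puma-/- against Puma-/- and 2.31% for Mysm1-/-Puma-/- against wild type. In CD150-positive cells it was 0.454% for Mysm1-/-Puma+/- against wild type, 0.115% for Mysm1-/-Puma-/- against Puma-/- and 0.291% for Mysm1-/-Puma-/- against wild type. The 0 of 5 calls among these genes is near those shares.

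**Figure D4:**
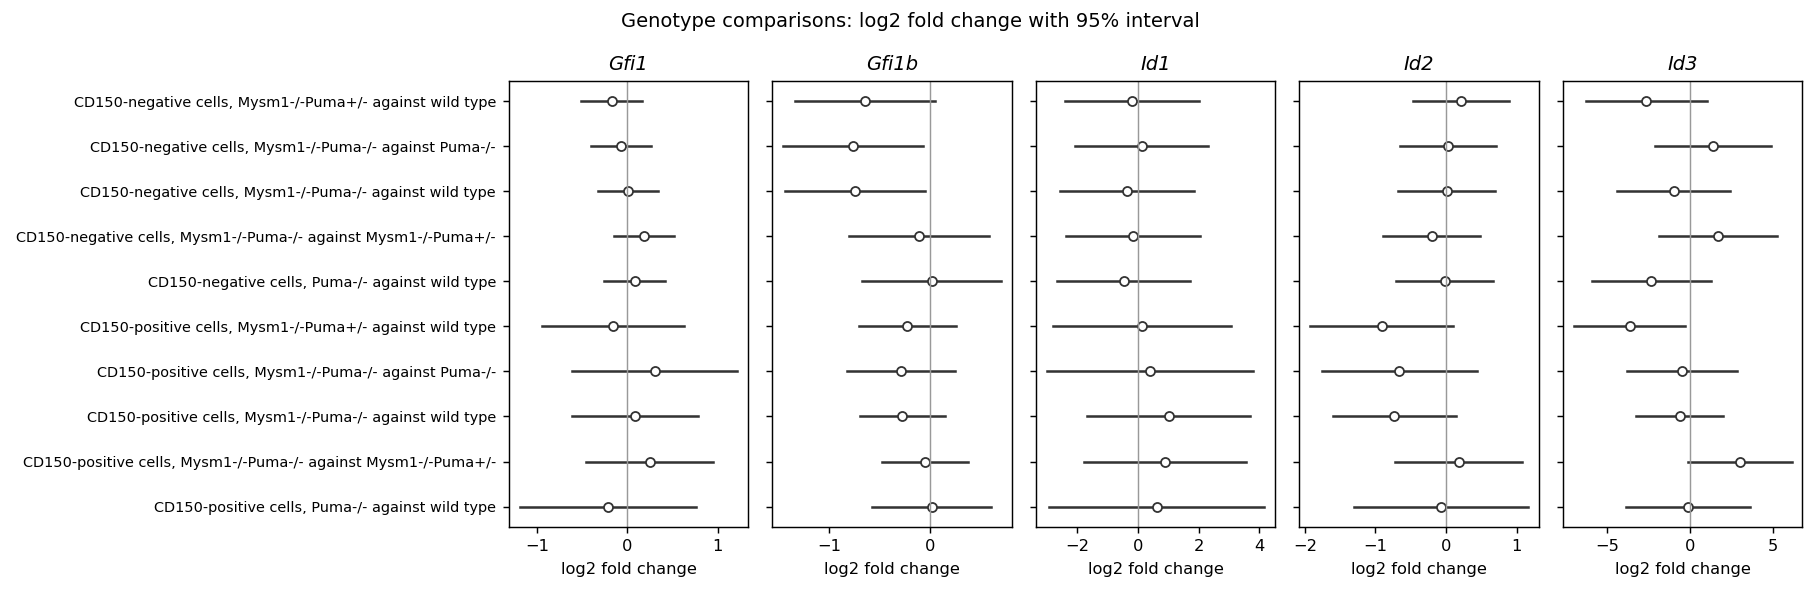
Log2 fold change of each gene with its 95% interval in the 10 genotype comparisons, CD150-negative cells in the upper 5 rows and CD150-positive cells in the lower 5; the first genotype named is over the other. All points are open since none passed the edgeR test, and the scales of the panels differ, with the widest intervals for Id1 and Id3.

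For Gfi1 the CD150-negative comparisons were the most precise. It averaged 22.8 ± 3.89 CPM (SD, n = 3) in Mysm1-/-Puma+/- and 26.3 ± 1.93 CPM in wild-type libraries, and 27.5 ± 2.28 CPM in Mysm1-/-Puma-/- and 28.1 ± 0.753 CPM in Puma-/- libraries. The log2 fold change was -0.18 ± 0.16 (SE) for Mysm1-/-Puma+/- over wild type, with a 95% interval from -0.51 to 0.16 and an edgeR adjusted p of 0.806. It was -0.07 ± 0.16 for Mysm1-/-Puma-/- over Puma-/-, with an interval from -0.41 to 0.26 and an edgeR adjusted p of 0.965. In CD150-negative cells the intervals thus left out a fall of 1 or more on the log2 scale in both comparisons.

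In CD150-positive cells Gfi1 averaged 9.20 ± 2.46 CPM (SD, n = 4) in Mysm1-/-Puma+/- and 10.8 ± 7.84 CPM (n = 4) in wild-type libraries, and 11.2 ± 3.32 CPM (n = 7) in Mysm1-/-Puma-/- and 9.61 ± 1.86 CPM (n = 2) in Puma-/- libraries. The log2 fold change was -0.16 ± 0.38 for Mysm1-/-Puma+/- over wild type, with an interval from -0.95 to 0.62 and an edgeR adjusted p of 0.891, and 0.30 ± 0.44 for Mysm1-/-Puma-/- over Puma-/-, with an interval from -0.61 to 1.22 and an edgeR adjusted p of 0.795. Without the P and W libraries the first of these was 0.47, with an edgeR adjusted p of 0.545, so its sign rested on library W1. The 8 groups in order of their mean Gfi1 level ran from 28.1 CPM in CD150-negative Puma-/- to 9.20 CPM in CD150-positive Mysm1-/-Puma+/- libraries. Of the neighbours in that order, only the lowest CD150-negative group and the highest CD150-positive group had ranges that did not overlap.

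Gfi1b in CD150-negative cells had lower means without Mysm1 in both comparisons, but did not pass the test. As listed above, it had 6.55, 5.96 and 18.5 CPM in Mysm1-/-Puma+/- libraries, against 15.5, 17.2 and 16.5 CPM in wild-type libraries. It had 10.7, 8.03 and 11.8 CPM in Mysm1-/-Puma-/- libraries, against 17.6, 13.2 and 19.4 CPM in Puma-/- libraries. In 5 of 6 Mysm1-/- libraries the level was below every library of the other genotypes, and library A3 was the exception. Mysm1-/-Puma-/- and Puma-/- libraries did not overlap.

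On the log2 scale Gfi1b was -0.64 ± 0.33 (SE) for Mysm1-/-Puma+/- over wild type, with an interval from -1.33 to 0.05 and an edgeR adjusted p of 0.584. It was -0.76 ± 0.33 for Mysm1-/-Puma-/- over Puma-/-, with an interval from -1.45 to -0.07, an unadjusted p of 0.0332 and an adjusted p of 0.396 by edgeR's quasi-likelihood test. Over wild type, which shares the Mysm1-/-Puma-/- libraries with the comparison before, it was -0.75 ± 0.33 with an edgeR adjusted p of 0.332. Library A3 decided the first of these values. Without A3 the log2 fold change of Mysm1-/-Puma+/- over wild type was -1.37 with an edgeR adjusted p of 0.00345, by voom with sample weights it was -1.17 with an adjusted p of 0.0125, and with the background reads as a covariate it was -1.10 with an edgeR adjusted p of 0.0413. By voom, Mysm1-/-Puma-/- over wild type was -0.79 with an adjusted p of 0.0480.

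The erythroid markers moved with Gfi1b in these libraries. Their summed level was 53.1, 52.5 and 136 CPM in Mysm1-/-Puma+/- libraries A1, A2 and A3, and 75.2, 55.02 and 79.6 CPM in Mysm1-/-Puma-/- libraries, against 150, 93.7 and 126 CPM in Puma-/- and 105, 90.8 and 108 CPM in wild-type libraries. The 3 libraries with the lowest Gfi1b levels had the 3 lowest marker sums, and A3 was among the highest in both. All 9 markers were matched, and 1 or 2 of them were at 0 in every library of a group, depending on the group. Megakaryocyte markers ran the other way, with 66.5 to 97.5 CPM in Mysm1-/-Puma+/- and 48.1 to 66.4 CPM in Mysm1-/-Puma-/- libraries, against 43.9 to 60.1 CPM in Puma-/- and 38.1 to 44.0 CPM in wild-type libraries. B cell markers moved too. The sum of 7 of them was 1227, 1221 and 350 CPM in Mysm1-/-Puma+/- libraries A1, A2 and A3 and 643, 1381 and 152 CPM in Mysm1-/-Puma-/- libraries, against 153 to 196 CPM in Puma-/- and 72.3 to 150 CPM in wild-type libraries. The 3 libraries lowest in Gfi1b thus had the 3 highest B cell sums. The sum of 6 T cell markers was 32.1 to 38.0 CPM in Mysm1-/-Puma+/- and 39.8 to 59.95 CPM in Mysm1-/-Puma-/- libraries, against 59.6 to 88.4 CPM in Puma-/- and 57.0 to 77.2 CPM in wild-type libraries. Markers of the sorted stem and progenitor cells summed to 1382, 1396 and 1873 CPM in A1, A2 and A3. They ran from 1746 to 1950 CPM in Mysm1-/-Puma-/-, 1742 to 1964 CPM in Puma-/- and 1728 to 1953 CPM in wild-type libraries. A1 and A2, the Mysm1-/-Puma+/- libraries left without A3, thus lay below every other CD150-negative library. Dendritic cell markers were also lowest in A1 and A2, at 103 and 137 CPM, and highest in A3, at 295 CPM. The part of these markers in the Gfi1b values was not tested.

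**Figure D5:**
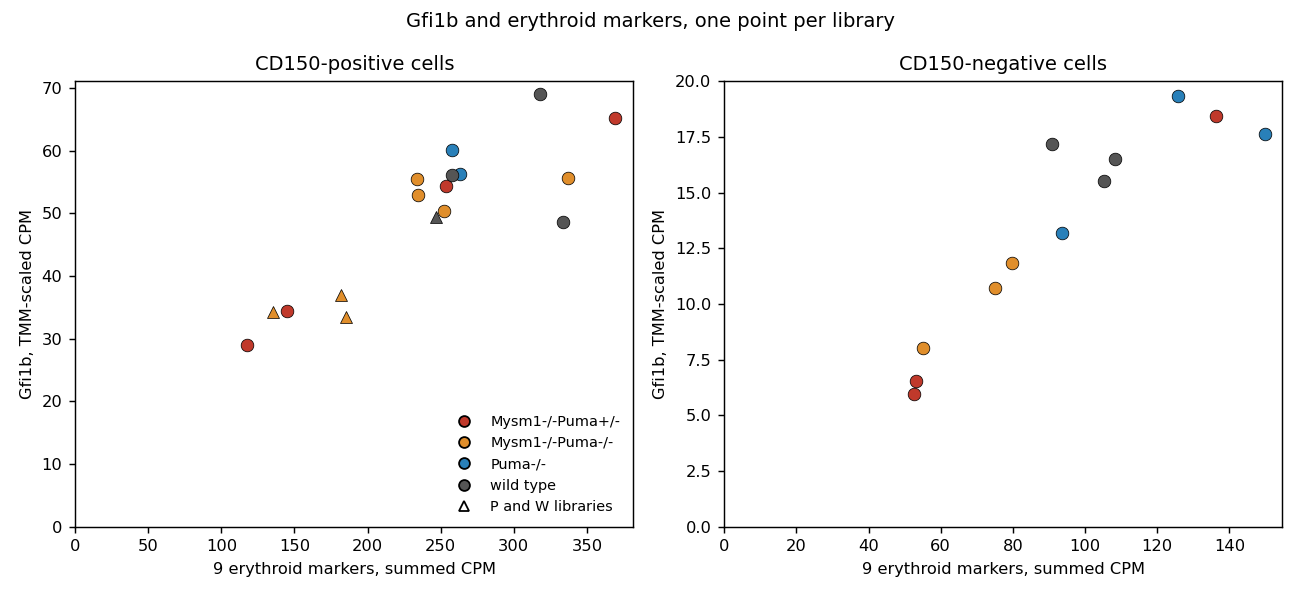
Gfi1b level against the summed level of 9 erythroid markers, 1 point per library, CD150-positive left and CD150-negative right, coloured by genotype with triangles for the P and W libraries. In CD150-negative cells the Mysm1-/- libraries lie at the lower left except A3, at 18.5 CPM and 136 CPM, which lies with the Puma-/- libraries.

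In CD150-positive cells Gfi1b averaged 45.8 ± 16.99 CPM (SD, n = 4) in Mysm1-/-Puma+/- and 55.9 ± 9.47 CPM (n = 4) in wild-type libraries, and 45.6 ± 10.2 CPM (n = 7) in Mysm1-/-Puma-/- and 58.2 ± 2.73 CPM (n = 2) in Puma-/- libraries. The log2 fold change was -0.23 ± 0.23 (SE) for Mysm1-/-Puma+/- over wild type and -0.29 ± 0.26 for Mysm1-/-Puma-/- over Puma-/-, with edgeR adjusted p of 0.752 and 0.671. Within Mysm1-/-Puma-/- the naming series stood apart, with 33.5 to 37.03 CPM in the 3 P libraries and 50.4 to 55.6 CPM in the 4 B libraries. The erythroid markers were split likewise, with 136 to 186 CPM in P and 234 to 337 CPM in B libraries. Megakaryocyte markers, at 397 to 712 CPM in P and 779 to 944 CPM in B libraries, and T cell markers, at 19.9 to 39.7 CPM in P and 51.9 to 60.9 CPM in B libraries, were lower in P libraries without overlap. Markers of the sorted stem and progenitor cells, at 1321 to 1497 CPM in P and 943 to 1170 CPM in B libraries, and mast cell markers, at 39.1 to 45.7 CPM in P and 20.6 to 35.3 CPM in B libraries, were higher in P libraries. Their part in the split of Gfi1b was not tested. Without the P and W libraries Gfi1b was -0.08 on the log2 scale for Mysm1-/-Puma-/- over Puma-/-, so most of the fitted value rested on the P libraries. The difference of the Mysm1-/-Puma+/- effect on Gfi1b between the populations, CD150-positive minus CD150-negative, was 0.38 ± 0.42 with an edgeR adjusted p of 1.

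Id2, the other published Mysm1 target, showed lower means with Mysm1 loss in CD150-positive cells, within a wide spread. It had 3.53, 4.70, 3.52 and 2.63 CPM in Mysm1-/-Puma+/- libraries, against 10.5, 2.82, 10.1 and 4.59 CPM in wild-type libraries. It had 1.58 CPM in the lowest, 3.86 in the median and 7.21 in the highest Mysm1-/-Puma-/- library, against 7.13 and 6.78 CPM in Puma-/- libraries. The groups overlapped in both comparisons, and 2 of the wild-type libraries lay at 10.1 CPM or more and the other 2 at 4.59 CPM or less. Id2 had a log2 fold change of -0.91 ± 0.49 (SE) for Mysm1-/-Puma+/- over wild type, with an interval from -1.92 to 0.10 and an edgeR adjusted p of 0.610. Without the P and W libraries the edgeR adjusted p was 0.350, the lowest of the alternatives tried. For Mysm1-/-Puma-/- over Puma-/- the log2 fold change was -0.66 ± 0.53, with an interval from -1.76 to 0.44 and an edgeR adjusted p of 0.646. Without the P and W libraries this log2 fold change was -0.28.

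The levels of Id2 were set beside 6 T cell markers in CD150-positive cells. Their sum was 31.9 to 44.9 CPM in Mysm1-/-Puma+/- and 19.9 to 60.9 CPM in Mysm1-/-Puma-/- libraries. It was 84.4 and 113 CPM in Puma-/- and 47.9 to 85.5 CPM in wild-type libraries. The wild-type libraries D1, D2, D3-4 and W1 had sums of 83.7, 85.5, 62.1 and 47.9 CPM. With Id2 at 10.5, 2.82, 10.1 and 4.59 CPM in these, the highest sum lay beside the lowest Id2 level. The part of the T cell markers in the Id2 values was not tested. In CD150-negative cells Id2 averaged 5.66 ± 1.59 CPM (SD, n = 3) in Mysm1-/-Puma+/- and 5.00 ± 1.37 CPM in wild-type libraries, and 5.18 ± 1.49 CPM in Mysm1-/-Puma-/- and 4.99 ± 1.27 CPM in Puma-/- libraries. The log2 fold change there was 0.21 ± 0.32 for Mysm1-/-Puma+/- over wild type and 0.03 ± 0.32 for Mysm1-/-Puma-/- over Puma-/-, with edgeR adjusted p of 0.899 and 0.994. The difference of the Mysm1-/-Puma+/- effect between the populations was -1.15 ± 0.65 for Id2, with an interval from -2.47 to 0.17 and an edgeR adjusted p of 1. For that difference edgeR called 0 of the 5 genes, also at an unadjusted p under 0.05, and 0.00916% of all genes, and DESeq2 and voom called 0 of the 5 as well.

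Id1 and Id3 had low counts that varied widely among libraries, so their genotype comparisons were imprecise. Id1 had at most 92 reads in a library, 0 reads in 4 libraries and 3 or fewer in 7. Id3 had at most 86 reads, 0 in 8 libraries and 3 or fewer in 9. A count of 0 allowed a level of up to 0.0802 to 0.215 CPM for Id1 and 0.0552 to 0.163 CPM for Id3, set at 3 counts in each such library and covering counting error only. The lowest values of Id3 were those of CD150-positive Mysm1-/-Puma+/- libraries, with 4, 0, 0 and 0 reads, against 0, 16, 6 and 12 reads in wild-type libraries. The fitted log2 fold change of -3.63 ± 1.61 (SE) rested on those 4 reads, with an unadjusted p of 0.0351 and an adjusted p of 0.542 by edgeR's quasi-likelihood test. In CD150-negative cells the wild-type library D4 alone held 86 of the 94 Id3 reads of its group. Id1 varied within groups too, with 62, 0 and 56 reads in CD150-negative Mysm1-/-Puma-/- libraries B1, B3 and B5. For Id1 the intervals of Mysm1-/-Puma+/- over wild type ran from -2.40 to 2.00 in CD150-negative and from -2.81 to 3.07 in CD150-positive cells. Several-fold changes in either direction were thus not excluded.

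Neither loss of Puma alone nor its loss on top of Mysm1 loss gave a call among the 5 genes. For Puma-/- over wild type edgeR called 0 of all genes (0%) in each population, with 324 genes in CD150-negative and 255 in CD150-positive cells at an unadjusted p under 0.05, none of them a member. DESeq2 called 2 genes in CD150-negative and 0 in CD150-positive cells there, and voom 0 in both. Gfi1 was 0.08 ± 0.16 and Gfi1b 0.01 ± 0.32 on the log2 scale in CD150-negative cells, and Gfi1 was -0.22 ± 0.47 and Gfi1b 0.01 ± 0.28 in CD150-positive cells. For Mysm1-/-Puma-/- over Mysm1-/-Puma+/-, 1.24% of all genes were called in CD150-negative cells and 0% in CD150-positive cells, where 797 genes had an unadjusted p under 0.05, DESeq2 called 3 and voom 0. Gfi1 was 0.18 ± 0.16 and Gfi1b -0.11 ± 0.33 there in CD150-negative cells, against 0.25 ± 0.34 and -0.05 ± 0.20 in CD150-positive cells.

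Among the other genes of these pathways, few were called with Mysm1 loss. None of the 7 Id family and helix-loop-helix genes, the 13 lymphoid genes driven by E proteins, the 22 BMP and TGF-beta genes or the 12 transcription factors acting on Gfi1 or Gfi1b was called in any of the 10 genotype comparisons by edgeR. Of the 13 cofactors, 1 was called once, the histone methyltransferase gene Suv39h1, with a log2 fold change of -0.60 ± 0.15 (SE) in CD150-negative Mysm1-/-Puma-/- over wild type and an edgeR adjusted p of 0.0486. In that comparison 2.31% of all genes were called. Of the 12 genes known to be repressed by GFI1, Cdkn1a and Bax rose in all 6 comparisons of Mysm1 loss. Both are also targets of p53, and Cdkn1a encodes the cell cycle inhibitor p21 and Bax a cell death protein. Bax was called lower in CD150-negative Mysm1-/-Puma-/- over Mysm1-/-Puma+/- cells, where 1.24% of all genes were called. The log2 fold change of Mysm1-/-Puma+/- over wild type was 3.80 ± 0.24 for Cdkn1a and 1.87 ± 0.16 for Bax in CD150-negative cells, and 3.81 ± 0.37 for Cdkn1a and 1.33 ± 0.18 for Bax in CD150-positive cells. The other 10 genes of that list, among them Gfi1b, Id1 and Id2, were not called. The list medians in those comparisons were 0.02 in CD150-negative cells, against -0.05 for all genes, and 0.04 in CD150-positive cells, against -0.05 for all genes. Of all genes, 0.869% were called in CD150-negative and 0.454% in CD150-positive cells.

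Of 5 other genes published as MYSM1 targets in blood cells, Bbc3 alone was called with Mysm1 loss. Its log2 fold change was 2.28 ± 0.28 in CD150-negative and 2.43 ± 0.23 in CD150-positive Mysm1-/-Puma+/- cells over wild type, with edgeR adjusted p of 0.000181 and 4.57e-06. Thus in the libraries where Bbc3, Cdkn1a and Bax rose, no difference in Gfi1 or Id2 passed the test. The 13 lymphoid genes driven by E proteins had a median of -1.04 in CD150-negative and -0.57 in CD150-positive cells for Mysm1-/-Puma+/- over wild type, with 0 called by edgeR. Over the 10 genotype comparisons that list's median ran from -1.04 to 0.46, and the median of all genes from -0.09 to 0.09.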

How the data were processed

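RNA of 29 libraries of sorted mouse marrow cells in 8 groups was analysed. The counts deposited by the authors are whole reads per gene symbol. Reads were trimmed with Trimmomatic 0.33, aligned to mm9 with TopHat2 2.0.9 and Bowtie 1.0.0 and counted with featureCounts, per the submitters' processing notes. Annotation, strand setting and the handling of reads with several matches are not given in the sources used here. A matrix of normalised CPM deposited by the authors, with 12578 genes and 0 columns of other samples, served only as an alternative, and Id1 and Id3 are not in it. Every 2 libraries within a group differed by more than sampling noise (lowest chi-square per degree of freedom 20.7).

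Genotypes were compared within each population in a fit of all 4 groups, and populations in a fit of all 29 libraries, with edgeR 4.0.16 in R 4.3.3. Genes were filtered by filterByExpr and scaled by TMM, and called by its quasi-likelihood test where the Benjamini-Hochberg adjusted p over all genes tested was under 0.05. All 5 genes passed the filter in every fit. SE is the log2 fold change over the square root of F, which is approximate, and 95% intervals were built on it. Levels per kilobase use the length given with the counts. Log2 CPM for likeness used a prior count of 2 and a mean of at least 2. The scripts were tested on simulated counts. The alternatives tried were DESeq2 1.42.0, RLE size factors, no filter, limma 3.58.1 (voom, and trend on log2 of CPM plus 1), background reads as a covariate, only the compared groups, left-out libraries and a replicate block.

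The members, lists and tests were chosen with earlier results of these data known. Of each list, up to 4 called genes with the smallest p were named. Spi1 was matched by its older symbol. Values of 2 genes that this rule or the likeness would name are not reported here.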

Additional observations from a re-analysis of the deposited data

Results flagged for a closer look

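In 15 sets of a gene and a group of 4 to 7 libraries, the highest and lowest library were compared with the rest by Dixon's ratio at the 95% level, by which chance marks about 1 in 20 sets, and 2 were marked. Id1 in CD150-positive Mysm1-/-Puma-/- library P1 was at 2.45 CPM (56 reads), apart from the other 6 libraries of its group at 0 to 0.933 CPM. The naming series were split for Id1 as well, with 0.878 to 2.45 CPM in the 3 P libraries and 0 to 0.612 CPM in the 4 B libraries. Id3 in CD150-positive Mysm1-/-Puma+/- library A1 was at 0.124 CPM, from 4 reads, where the other 3 libraries of its group had 0 reads.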

How the results depend on the processing

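Counts of called genes among the 5 changed in few settings. For Mysm1-/-Puma+/- against wild type in CD150-negative cells, edgeR called 0, voom 1, the fit with background reads as a covariate 1, and fits with 1 library left out 0 to 1, the 1 being Gfi1b. For Mysm1-/-Puma-/- against wild type in CD150-negative cells voom called 1. Between the populations, fits with 1 library left out called 1 to 2 of the 5 in Mysm1-/-Puma+/-, in Puma-/- and in wild-type cells, and a fit of only the compared groups called 1 in wild-type cells, where Gfi1 had an adjusted p of 0.0658. Gfi1 lost its call without CD150-positive A1 (adjusted p = 0.0503) or CD150-negative A3 (0.0698), without any 1 of the 5 Puma-/- libraries (0.0559 to 0.237), and without CD150-positive D1 (0.0584) or D3-4 (0.0618) or CD150-negative D2 (0.0564), all by edgeR. The cause was not tested, except that a left-out library lowers the number of samples. Of the values of single genes, 0 reversed from a called value, 11 lost and 4 gained a call. Limma-trend on the deposited CPM gave no value for Id1 and Id3. At the depth reached, Id1 and Id3 rest on at most 92 and 86 reads a library.

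Libraries with the same number were checked for pairing. Same-numbered libraries across genotypes had correlations of their deviations from -0.49 to 0.30 in CD150-negative and -0.009 to 0.46 in CD150-positive cells. Libraries of the same name in both populations had -0.20 to 0.67 in 7 pairs, of which 4 were over 0.1. A2 had 0.67, A3 0.60 and B3 0.33, whereas B5 had -0.20. Whether same-named libraries share a source is not in the labels. The main tests took no libraries as pairs, so those between populations treated possibly paired libraries as independent. With the replicate block, where it could be fitted, no count of called genes among the 5 changed. Gfi1 was then -1.41 and Gfi1b 2.17 between the populations in Mysm1-/-Puma+/- cells, and Gfi1b was -0.66 for Mysm1-/-Puma+/- against wild type in CD150-negative cells.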
